A study of Sus scrofa with 9 samples.

Results

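The genes described here are those of MHC class I antigen presentation in the pig: the heavy chain genes SLA-1, SLA-2, SLA-3, SLA-6, SLA-7 and SLA-8 (SLA, swine leukocyte antigen), the light chain gene B2M, and the peptide loading genes TAP1 and TAPBP. Their members on the array were all probes whose sequence accession, without its version, belongs to one of these genes in the RefSeq annotation of the pig. Of the 9 genes listed, 6 had a named probe, among 3052 named genes on the array. They were SLA-3 with 7 probes, SLA-8 with 4, B2M with 2, TAP1 with 2, and SLA-6 and SLA-7 with 1 each, which made 17 probes. Of these, 16 were bright enough to be tested, among 16024 tested probes, and the other was the second probe of TAP1. SLA-1, SLA-2 and TAPBP had no named probe and were not analysed here.

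Transcripts were measured on 9 single-colour Agilent arrays of T cells sorted from the blood of sows. The fractions were CD3+CD4+CD8+ cells (DP cells, double positive), CD3+CD4+ cells (CD4 cells, the CD4 fraction) and CD3+CD8+ cells (CD8 cells, the CD8 fraction), with 3 arrays each. No treatment is named for any fraction, and the sources used here do not give the breed, age and number of the sows or the purity of the sort. The labels call the arrays biological replicates without saying whether they came from separate sows, so that the p-values below measure the spread between these arrays.

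MHC class I molecules carry short peptides from inside the cell to its surface, where CD8 T cells read them. The heavy chain, the product of an SLA class I gene, pairs with beta-2 microglobulin, the product of B2M. Peptides cut by the proteasome are pumped into the endoplasmic reticulum by the transporter TAP, of which TAP1 and TAP2 are the 2 subunits, and tapasin, encoded by TAPBP, holds the empty class I molecule at the transporter. In the pig SLA-1, SLA-2 and SLA-3 are the classical class I genes, and SLA-6, SLA-7 and SLA-8 are nonclassical ones. Class I is carried by nearly all nucleated cells, lymphocytes among them, and interferon is known to raise its genes. MHC class II, which presents to CD4 T cells, is carried by professional antigen presenting cells and, in the pig, also by T cells.

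The heavy chain genes are alike in sequence, and the probe sequences were not used here, so a probe may also bind transcripts of another class I gene. All 7 probes of SLA-3 were named through a single accession, and the annotation lists SLA-1 and SLA-7 as other names of its SLA-3 entry. They are therefore called SLA-3 probes as the annotation has them. In the order of the annotation, SLA-2 and SLA-3 are neighbours, SLA-8, SLA-7 and SLA-6 follow one another, and TAP1 lies between PSMB8 and PSMB9, which encode subunits of the immunoproteasome.

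Values are log2 signals, each taken relative to the 75th percentile of its array, so that 0 is the brightness below which 75% of the probes of that array lie. A difference of 1 is a factor of 2. Probes of different sequence bind with different strength, and no level is set against that of another probe. The 75th percentile signal was 19.0 to 42.5 in DP cells, 15.2 to 84.1 in CD4 cells and 18.4 to 29.7 in CD8 cells, and the arrays had 32.6% to 53.7% of their probes well above background. The arrays lay on 3 slides. Slide 1 held DP array 1 alone, slide 2 held DP array 2, CD4 array 2 and CD8 arrays 1 and 2, and slide 3 held the other 4. Transcripts of CD3D, CD3E, CD3G and CD247, which encode chains of the T cell receptor complex, were well above background on all 9 arrays, and CD4 was so on 3 DP arrays, 3 CD4 arrays and 1 CD8 array. CD8A was well above background on all 9 arrays, at 4.32, 2.84 and 3.26 in DP cells, 0.29, 0.94 and -0.40 in CD4 cells and 5.81, 5.53 and 4.72 in CD8 cells. CD8 array 2 stood somewhat apart: it was the lowest of the 9 arrays by more than 1 in 3.59% of the tested probes, against 0.337% to 2.18% for the other arrays. For B2M, SLA-3, SLA-7, SLA-8 and TAP1, and for some genes of the other lists, differences from the CD8 fraction are given with and without it.

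None of the 16 tested class I and TAP1 probes passed the test of a difference between any 2 of the 3 fractions. Of the 16 tested probes, 0 passed an adjusted p of 0.05 in DP against CD4, where 0.293% of all tested probes did, 0 in DP against CD8, where 0.312% did, and 0 in CD4 against CD8, where 0.437% did (limma, Benjamini-Hochberg over all tested probes, two-sided, n = 3 arrays per fraction). The lowest adjusted p among them was 0.9999, 0.672 and 0.9992 in the same order. At called shares of 0.293% to 0.437%, 0 calls among 16 probes does not set the members apart. At an unadjusted p of 0.05 the counts were 0, 1 and 0 of 16 probes, against 4.84%, 6.52% and 4.54% of all tested probes. A p that misses the threshold does not show that levels were equal, and the 95% intervals of the 16 probes extended by a median of 1.01 log2 units to either side of the difference.

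B2M, the light chain shared by all class I molecules, was well above background on all 9 arrays. Its probe of highest mean stood at 7.11, 7.45 and 6.54 in DP cells, 7.14, 6.92 and 6.50 in CD4 cells and 7.12, 7.35 and 6.44 in CD8 cells. The 3 ranges overlapped almost wholly. On the linear scale of the scanner the same spots read 5481, 7452 and 1770 in DP cells, 11883, 1844 and 2615 in CD4 cells and 2567, 3947 and 2574 in CD8 cells, before any scaling between arrays. The mean was 7.03 ± 0.46 in DP cells, 6.86 ± 0.32 in CD4 cells and 6.97 ± 0.47 in CD8 cells (SD, n = 3 each). DP minus CD4 was 0.18 (SE 0.37), a 1.13-fold level with a 95% interval of 0.653 to 1.96. DP minus CD8 was 0.07 (95% interval -0.73 to 0.86), and CD4 minus CD8 was -0.11 (-0.91 to 0.68). Without CD8 array 2, DP minus CD8 was 0.25 and CD4 minus CD8 was 0.07. With all arrays the second B2M probe gave 0.24 for DP minus CD4, 0.04 for DP minus CD8 and -0.20 for CD4 minus CD8. Its values followed those of the first over the 9 arrays (Pearson r = 0.93, as a description). The arrays numbered 3 had the lowest value of each fraction for both probes.

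**Figure D1:**
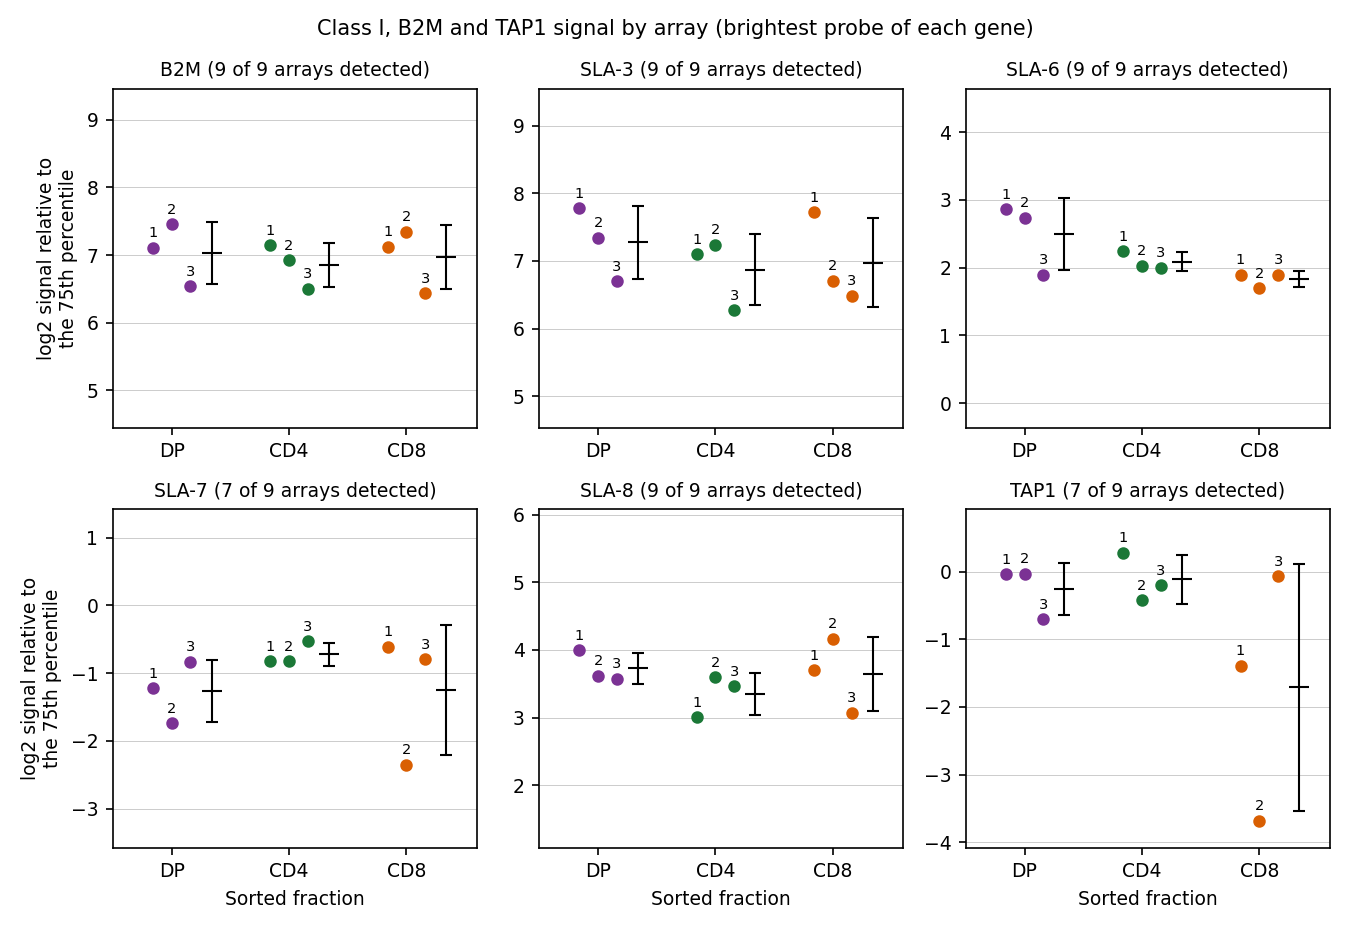
Level of B2M, SLA-3, SLA-6, SLA-7, SLA-8 and TAP1 (the probe of highest mean of each gene) on the 9 arrays, as log2 signal relative to the array's 75th percentile, in DP, the CD4 fraction and the CD8 fraction. Small numbers are replicate numbers, and bars show the mean and SD of 3 arrays; every vertical axis spans the same number of log2 units. The fractions overlap for every gene except SLA-6 in CD4 against CD8 and SLA-7 in DP against CD4, and the lowest TAP1 point, at -3.68, is CD8 array 2.

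SLA-3, a classical heavy chain gene, was likewise well above background on all 9 arrays. The probe of highest mean read 7.78, 7.34 and 6.70 in DP cells, 7.10, 7.24 and 6.28 in CD4 cells and 7.72, 6.71 and 6.49 in CD8 cells. The fractions overlapped, with the highest value in DP and the lowest in the CD4 fraction. Its mean was 7.27 ± 0.54 in DP cells, 6.87 ± 0.52 in CD4 cells and 6.97 ± 0.66 in CD8 cells (SD, n = 3 each). The differences were 0.40 (SE 0.43, 95% interval -0.52 to 1.32) for DP minus CD4, which was 0.15 without DP array 1, 0.30 (-0.62 to 1.23) for DP minus CD8, which was 0.0515 without that array, and -0.10 (-1.02 to 0.82) for CD4 minus CD8. Without CD8 array 2, DP minus CD8 was 0.17 and CD4 minus CD8 was -0.23. Over all 7 probes the difference ran between 0.07 and 0.58 in DP minus CD4, with 7 of 7 above 0, between -0.13 and 1.14 in DP minus CD8, with 6 of 7 above 0, and between -0.31 and 0.97 in CD4 minus CD8, with 3 of 7 above 0. The 7 probes share a source and are not replicates of each other.

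The SLA-3 probes did not move as one across arrays. Numbered by their mean, probes 3 and 4 had their highest value of all 9 arrays on CD8 array 2, at 6.73 and 6.46. Probes 5, 6 and 7 had their lowest value of all on that same array, at 3.45, 2.38 and 2.88. On the other CD8 arrays probe 5 read 5.51 and 5.09, close to its 6.08, 5.84 and 5.55 in DP and its 5.49, 5.76 and 5.38 in the CD4 fraction. Over the 9 arrays the 21 pairs of SLA-3 probes correlated with r between -0.26 and 0.98 (median 0.45), the highest being probes 5 and 6 and the lowest probes 3 and 6. All pairs share their arrays and the scaling of each array, so these are descriptions with no test.

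Probe 5 was the member with the smallest p in DP against CD8. Every DP array lay above every CD8 array, with a difference of 1.14 (SE 0.47, a 2.20-fold level, unadjusted p = 0.031, adjusted p = 0.672, limma). Without CD8 array 2 the difference was 0.52 (unadjusted p = 0.158, adjusted p = 1, limma with the smaller set of arrays). Probe 6 gave 1.09 with that array and 0.27 without it, and probe 7 gave 0.79 and 0.38. The deposited table of processed values was low as well in the column that follows this array's scanner file, with 8.26, 7.27 and 7.75 for probes 5, 6 and 7 on its own log2 scale. Whether the array or the cells on it gave these values was not tested.

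**Figure D2:**
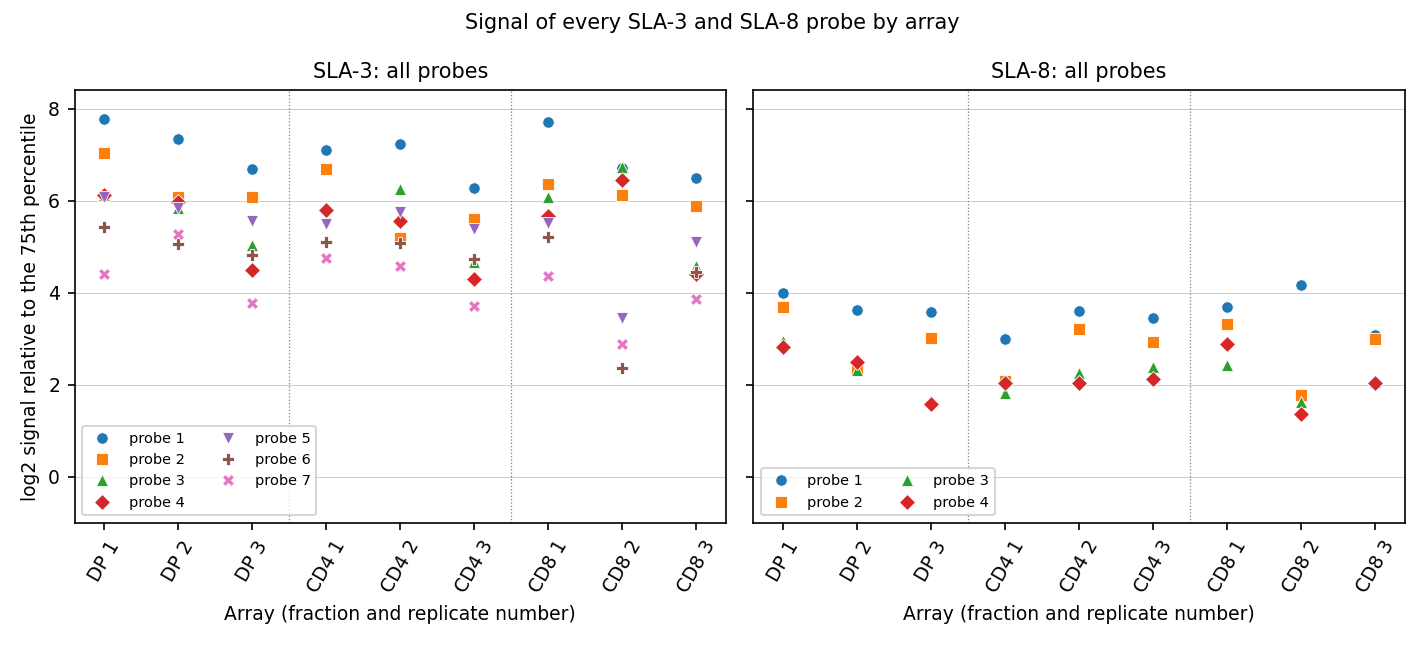
Log2 signal relative to the array's 75th percentile of the 7 SLA-3 probes (left) and the 4 SLA-8 probes (right) on each of the 9 arrays, grouped as DP, CD4 and CD8. On CD8 array 2, SLA-3 probes 3 and 4 sit at 6.73 and 6.46, above their values on all other arrays, and probes 5, 6 and 7 sit at 3.45, 2.38 and 2.88, below theirs.

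SLA-8, a nonclassical heavy chain gene, had 4 probes, all well above background on all 9 arrays. The probe of highest mean read 3.995, 3.62 and 3.57 in DP cells, 3.01, 3.59 and 3.46 in CD4 cells and 3.70, 4.17 and 3.08 in CD8 cells. The CD8 arrays held both the highest value and one of the lowest, so that the range of the CD8 fraction took in most of the others. DP minus CD4 was 0.38 (SE 0.38, 95% interval -0.45 to 1.20), DP minus CD8 was 0.08 (-0.74 to 0.91) and CD4 minus CD8 was -0.29 (-1.12 to 0.53). Without CD8 array 2, DP minus CD8 was 0.34 and CD4 minus CD8 was -0.0350. With all arrays, the 4 probes gave 0.14 to 0.38 for DP minus CD4 and 0.08 to 0.32 for DP minus CD8. For CD4 minus CD8 they gave -0.29 to 0.12. In DP minus CD8 without CD8 array 2, probes 2, 3 and 4 were at -0.15, 0.06 and -0.17. On CD8 array 2 the SLA-8 probes also parted, but by less than those of SLA-3. Probe 1 had its highest value of the 9 arrays there, at 4.17, and probes 2, 3 and 4 had their lowest, at 1.77, 1.62 and 1.37. These lowest values lay 0.32, 0.02 and 0.22 below the next array, so that probe 3 was nearly tied. For SLA-3 probes 5, 6 and 7 the gaps were 1.64, 2.08 and 0.84.

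SLA-6, a nonclassical gene with 1 probe, read 2.86, 2.74 and 1.89 in DP cells, 2.25, 2.03 and 2.00 in CD4 cells and 1.89, 1.70 and 1.90 in CD8 cells. DP arrays 1 and 2 were above all others, and DP array 3 lay among the CD8 arrays. The order of the means was DP cells (2.498 ± 0.53), CD4 cells (2.09 ± 0.14) and CD8 cells (1.83 ± 0.12; SD, n = 3 each). DP minus CD8 was 0.67 (SE 0.38, 95% interval -0.16 to 1.496), a 1.59-fold level with an adjusted p of 0.906 (limma), and DP minus CD4 was 0.41 (-0.42 to 1.24). All CD4 arrays lay above all CD8 arrays, by a mean of 0.26, and this was the only one of the 16 probes whose CD4 and CD8 arrays did not overlap, against 8.01% of all tested probes.

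SLA-7, a nonclassical gene that is dim here, read -1.23, -1.74 and -0.83 in DP cells, -0.82, -0.82 and -0.53 in CD4 cells and -0.61, -2.35 and -0.79 in CD8 cells. It was well above background on 3 DP arrays, 2 CD4 arrays and 2 CD8 arrays. Every DP array was below every CD4 array, the closest values lying 0.01 apart at -0.83 and -0.82, and the difference was -0.54 (SE 0.59, 95% interval -1.81 to 0.72). It was the only one of the 16 probes whose DP and CD4 arrays did not overlap, against 10.1% of all tested probes. In DP against CD8, SLA-3 probe 5 was the only one, against 9.77%. For SLA-7, DP minus CD8 was -0.0157 (95% interval -1.28 to 1.25) and CD4 minus CD8 was 0.53 (-0.74 to 1.80). Without CD8 array 2 these differences were -0.57 and -0.0211.

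TAP1, the transporter subunit, was near the threshold of detection in the CD8 fraction. Its tested probe read -0.04, -0.03 and -0.71 in DP cells, 0.28, -0.42 and -0.20 in CD4 cells and -1.39, -3.68 and -0.07 in CD8 cells. It was well above background on 3 DP arrays, on 3 CD4 arrays and on 1 of the 3 CD8 arrays, and the brightest CD8 array lay within the range of DP and of CD4. The difference was 1.45 for DP minus CD8 (SE 0.76, 95% interval -0.18 to 3.09, unadjusted p = 0.0774, adjusted p = 0.847, limma). For CD4 minus CD8 it was 1.60 (-0.04 to 3.23, unadjusted p = 0.055, adjusted p = 0.9992, limma), and for DP minus CD4 it was -0.14 (-1.78 to 1.49).

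These TAP1 values moved with single arrays. Without CD8 array 2, DP minus CD8 was 0.47 (adjusted p = 1, limma) and CD4 minus CD8 was 0.61 (adjusted p = 1, limma). These were the lowest values with 1 array left out, and the highest were 2.28 for DP minus CD8 and 2.42 for CD4 minus CD8. With the normexp background correction in place of the scanner's, on all arrays, the 2 differences were 0.22 and 0.26. The second TAP1 probe was not tested, since no fraction had it well above background on all 3 arrays. It was so on 2 DP arrays, 2 CD4 arrays and 1 CD8 array, with means of -2.34 ± 1.02, -1.004 ± 0.56 and -2.44 ± 1.13 (SD, n = 3 each). At this brightness no order of the fractions is read from it.

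**Figure D3:**
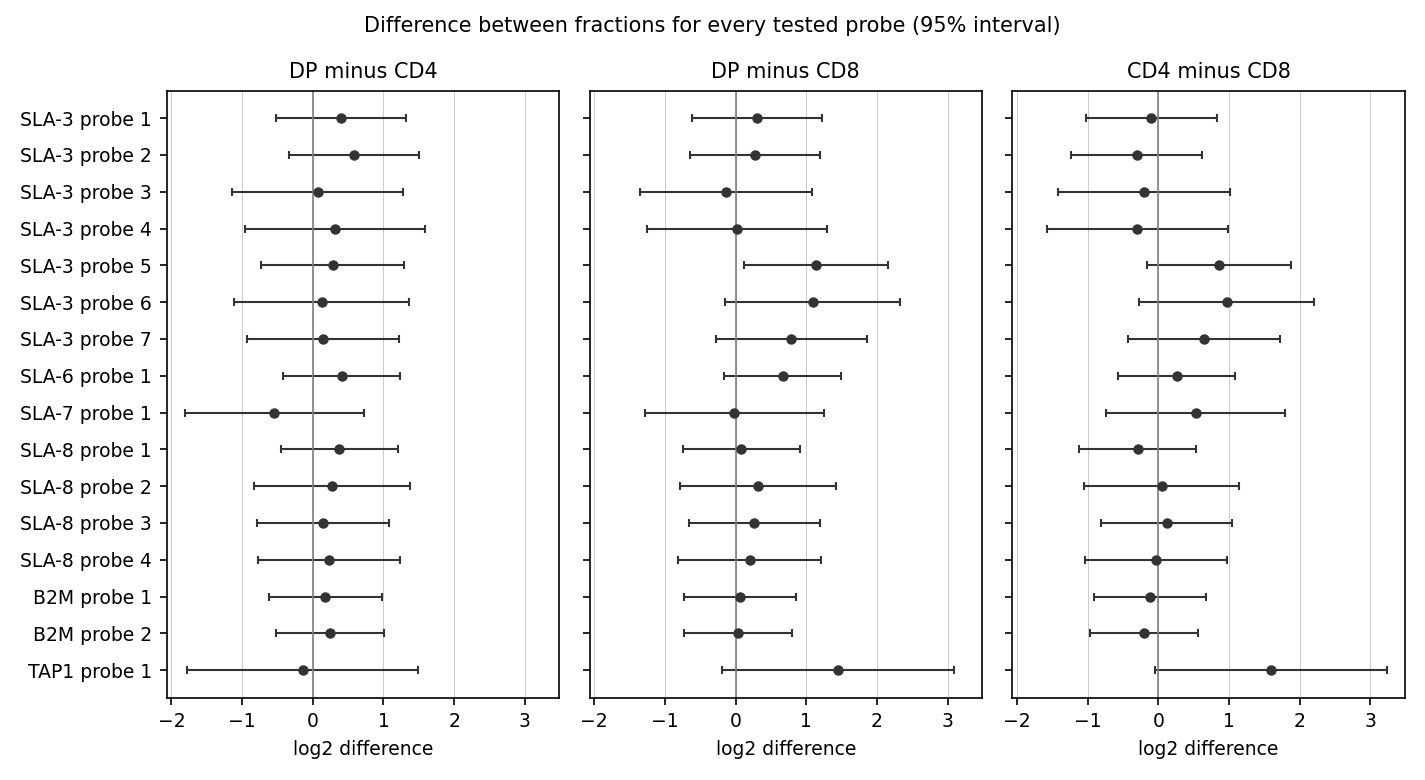
Difference in log2 signal with its 95% interval (limma, 3 arrays per fraction) of the 16 tested class I and TAP1 probes in DP minus CD4, DP minus CD8 and CD4 minus CD8. The interval takes in 0 for every probe in every comparison except SLA-3 probe 5 in DP minus CD8, at 1.14, whose adjusted p was 0.672.

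Seen together, 14 of the 16 probes had a difference above 0 in DP minus CD4 and 14 in DP minus CD8, against 47.7% of all tested probes in both, and 8 of 16 in CD4 minus CD8, against 48.8%. The 2 comparisons that hold DP share the DP arrays. These counts rest on DP array 1, the array alone on its slide: without it 9 of 16 were above 0 in DP minus CD4, against 45.8% of all tested probes, and 7 of 16 in DP minus CD8, against 47.6%. The median difference was 0.24, 0.27 and 0.01 over the member probes in DP minus CD4, DP minus CD8 and CD4 minus CD8, and -0.02, -0.03 and -0.01 over all tested probes. Without DP array 1 the member medians were 0.0699 in DP minus CD4 and -0.0298 in DP minus CD8. With any single array left out they ran between 0.0699 and 0.46 in DP minus CD4, the highest without DP array 3, between -0.0298 and 0.55 in DP minus CD8, again the highest without DP array 3, and between -0.0016 and 0.31 in CD4 minus CD8, the highest without CD8 array 1. In absolute size the median was 0.26, 0.27 and 0.28 over the members, and 0.28, 0.34 and 0.32 over all tested probes. Counted by gene, each by its probe of highest mean, 4, 5 and 3 of 6 were above 0. Since many of these probes share a target or an array's departure, the counts are descriptions.

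The members varied with the replicate number about as often as all tested probes did. For 11 of the 16 probes the means of replicates 1, 2 and 3 covered a wider range than the means of the 3 fractions, as they did for 66% of all tested probes. For B2M the fraction means spanned 0.18 and the replicate means 0.74. For SLA-3 probes 3 and 4 the fraction means spanned 0.20 and 0.32, and the replicate means 1.51 and 1.59. Replicate 3 was the lowest array of all 3 fractions for 5 of the 16 probes, namely both B2M probes and SLA-3 probes 1, 3 and 4, against 17.1% of all tested probes. What the replicate numbers stand for is not given in the labels. All arrays numbered 2 lay on slide 2 and all numbered 3 on slide 3, so number and slide cannot be told apart for these.

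Slides 2 and 3 held all 3 fractions, with 1 or 2 arrays of each, so that differences could also be read within a slide, with no test. In DP minus CD4, the difference within slide 2 and within slide 3 was 0.53 and -0.28 for B2M, 0.71 and -0.23 for SLA-6 and 0.39 and -0.75 for TAP1. It was 0.10 and 0.01 for SLA-3, 0.03 and 0.34 for SLA-8 and -0.92 and -0.16 for SLA-7. The first 3 genes thus changed sign between the slides, and the other 3 did not. In DP minus CD8, SLA-8 (-0.31 and 0.50), SLA-6 (0.94 and -0.0031) and TAP1 (2.51 and -0.64) changed sign, while B2M (0.22 and 0.10), SLA-3 (0.13 and 0.21) and SLA-7 (-0.26 and -0.04) kept theirs. In CD4 minus CD8, B2M (-0.31 and 0.38) and SLA-8 (-0.34 and 0.16) changed sign, and SLA-3 (0.03 and 0.20), SLA-6 (0.23 and 0.22), SLA-7 (0.66 and 0.12) and TAP1 (2.11 and 0.10) did not. For SLA-3 both values were above 0, whereas the difference over all arrays was -0.10. The TAP1 values of slide 2 against the CD8 fraction include CD8 array 2, at -3.68.

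The other genes of class I loading and its control were read from a list of 30, of which 16 had a named probe and 15 were tested. They include the further class I heavy chain gene SLA-5, the second transporter subunit TAP2, the chaperones CALR and CANX, the immunoproteasome subunits PSMB8, PSMB9 and PSMB10, the proteasome activators PSME1, PSME2 and PSME3, the class I transactivator NLRC5, the interferon regulatory factor IRF1, and the class I-like FCGRT and CD1D. In each comparison 0 of the 15 were called. Of all tested probes, 0.293% were called in DP against CD4, 0.312% in DP against CD8 and 0.437% in CD4 against CD8. At these shares, 0 calls in a list this short does not set it apart. The difference was above 0 for 9 in DP minus CD4, 10 in DP minus CD8 and 7 in CD4 minus CD8. The shares over all tested probes were 47.7%, 47.7% and 48.8%. The medians of the list were 0.14, 0.24 and -0.0006.

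PSMB8, the neighbour of TAP1, had the smallest p of the list in DP against CD4. It read 4.14, 3.74 and 3.83 in DP cells against 3.23, 3.73 and 3.20 in CD4 cells, a difference of 0.52 (95% interval -0.22 to 1.25). The DP arrays all lay above the CD4 arrays, the closest by 0.01. Of all tested probes, 10.1% had DP and CD4 arrays that did not overlap, in either direction. PSMB9, its other neighbour, gave 0.46 (-0.39 to 1.31).

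CD1D, which presents lipids to a class of T cells, had the smallest p of the list in the comparisons with the CD8 fraction. Its values were 1.19, 0.17 and 0.07 in DP cells, 0.83, -0.29 and 0.37 in CD4 cells and -0.67, -3.03 and -1.41 in CD8 cells. Background was clearly exceeded on all 3 DP arrays, all 3 CD4 arrays and 2 of the 3 CD8 arrays, and the CD8 arrays did not overlap the others. Of all tested probes, 9.77% did not overlap in DP against CD8 and 8.01% in CD4 against CD8, in either direction. DP minus CD8 was 2.18 (95% interval 0.81 to 3.55, unadjusted p = 0.00437, adjusted p = 0.290, limma) and CD4 minus CD8 was 2.01 (adjusted p = 0.490, limma), so neither passed. With normexp they were 0.54 and 0.54, and without CD8 array 2 they were 1.52 and 1.35. The next by p were CALR in DP minus CD8, at 0.67 (adjusted p = 0.934, limma), and TAP2 in CD4 minus CD8, at 0.80 (adjusted p = 0.9992, limma). For both, the lowest value of the 9 arrays was that of CD8 array 2, at 1.58 for CALR and -2.79 for TAP2, and without that array the differences were 0.25 and 0.26. TAP2 was well above background on 2 CD4 arrays and 1 CD8 array.

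MHC class II was read on the same arrays beside class I. Of its 9 genes on the array 8 were tested, and each was read by its probe of highest mean. In DP against CD4, 2 of the 8 were called higher (0.225% of all tested probes) and the median difference was 2.18. In CD4 against CD8, 3 of the 8 were called lower (0.325% of all tested probes) and the median was -2.13. In DP against CD8, 0 were called (0.312% of all tested probes) and the median was 0.15. SLA-DQA1 was not called by that probe, but 2 of its 7 probes were called in DP against CD4 and 2 in CD4 against CD8. SLA-DRA, the class II alpha chain, read 7.47, 5.76 and 7.52 in DP cells, 4.03, 3.76 and 4.42 in CD4 cells and 7.59, 7.41 and 7.03 in CD8 cells. DP minus CD4 was 2.84 (SE 0.45, adjusted p = 0.0202, limma), and CD4 minus CD8 was -3.27 (adjusted p = 0.00661, limma). The first of these calls was lost without DP array 1, at 2.56 (adjusted p = 0.155, limma), and without CD4 array 1, 2 or 3, at 2.82, 2.69 and 3.02 (adjusted p = 0.0553, 0.0795 and 0.0568, limma). It was also lost with normexp, the slide as a block and the arrays compared alone (adjusted p = 0.215, 0.152 and 0.0663, limma). That made 7 of the 20 alternatives tested. The second call was lost in 1 of the 20, with normexp, at -2.84 (adjusted p = 0.113, limma). SLA-DQB1, a class II beta chain, gave 3.00 for DP minus CD4 (adjusted p = 0.0338, limma) and -2.88 for CD4 minus CD8 (adjusted p = 0.0327, limma). Each of these calls was lost in 14 of the 20 alternatives tested, with adjusted p of up to 0.234 and 0.409 (limma). In DP minus CD8 the class II genes with the smallest p were SLA-DOB, at 1.22, a chain of the DO molecule, and SLA-DMA, at 0.56, a chain of the DM molecule, and neither passed. Without CD8 array 2 they were 0.44 and -0.0589. SLA-DOB was well above background on 3 DP arrays and 2 CD8 arrays.

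The class II differences ran between 0.47 and 3.00 in DP minus CD4 and between -3.27 and 0.76 in CD4 minus CD8, set beside -0.54 to 0.58 and -0.31 to 1.60 for the 16 class I and TAP1 probes; the difference between the 2 lists was not tested. As these are sorted bulk samples, fewer cells of a type and less RNA per cell cannot be told apart. The B cell markers on the array, 4 of 8 listed, summed to -1.06 to 1.55 in DP cells, 0.15 to 1.25 in CD4 cells and 2.49 to 3.65 in CD8 cells; CD79A carried most of the sum, while BLNK was well above background on 0 arrays. The natural killer markers, 3 of 5 listed, summed to 0.82 to 3.02 in DP cells, -2.05 to -0.69 in CD4 cells and 2.67 to 4.39 in CD8 cells. NCR1 was well above background on 0 arrays, and KLRB1 on 0 DP arrays, 0 CD4 arrays and 1 CD8 array. In DP cells and CD8 cells the sum was mostly KLRK1, and by itself it does not mark natural killer cells. The part of B cells or natural killer cells in the class I and class II values was not tested.

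**Figure D4:**
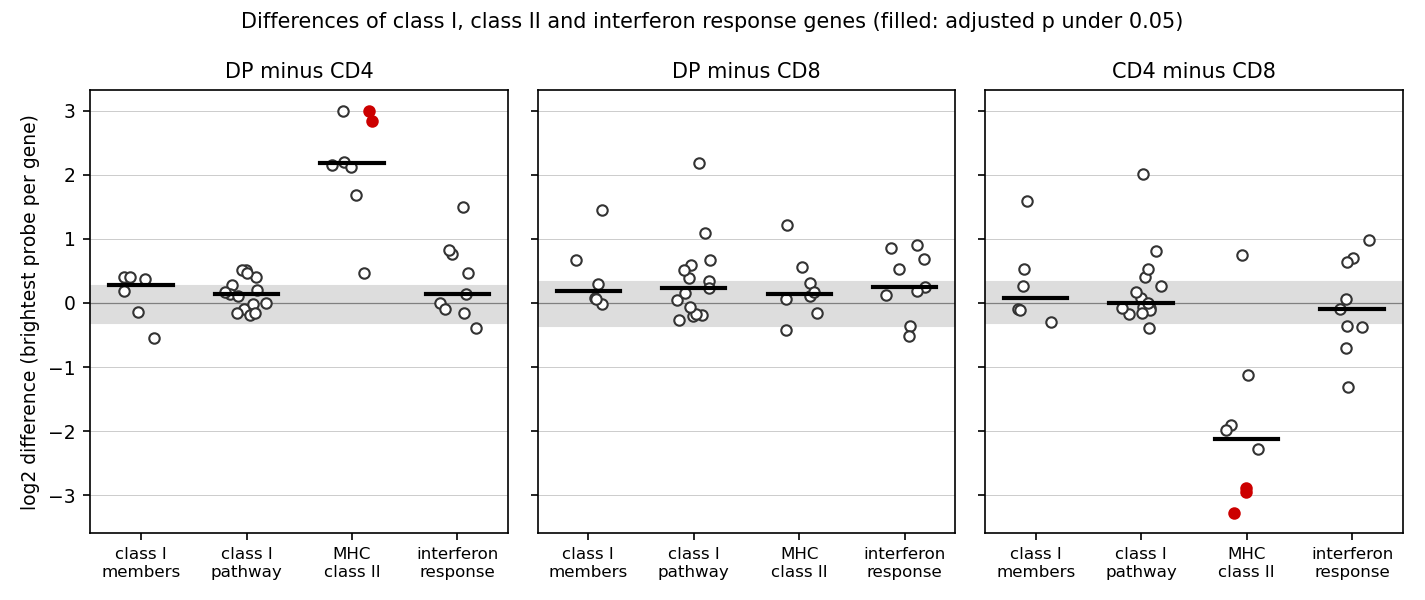
Log2 differences, 1 point per gene by its probe of highest mean, of the 6 class I and TAP1 genes, 15 other class I pathway genes, 8 MHC class II genes and 9 interferon response genes in the 3 comparisons. Red points passed an adjusted p of 0.05, the bar is the median of the list, and the grey band spans the lower to the upper quartile of all tested probes. The class II medians of 2.18 and -2.13 lie far outside it, and the class I gene medians are 0.28, 0.19 and 0.08.

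Genes of the interferon response, which as background is known to raise class I, were read from a list of 21, of which 15 had a named probe and 9 were tested. In each comparison 0 of the 9 were called, against 0.293%, 0.312% and 0.437% of all tested probes in DP against CD4, DP against CD8 and CD4 against CD8. The medians were 0.15 in DP minus CD4, 0.25 in DP minus CD8 and -0.09 in CD4 minus CD8. GBP1, a guanylate binding protein, had the smallest p: it read 4.37, 3.87 and 4.48 in DP cells, 2.11, 3.30 and 2.82 in CD4 cells and 4.29, 4.27 and 3.58 in CD8 cells. All CD4 arrays were below all others. Of all tested probes, 10.1% did not overlap in DP against CD4 and 8.01% in CD4 against CD8, in either direction. DP minus CD4 was 1.497 (95% interval 0.62 to 2.37, adjusted p = 0.219, limma) and CD4 minus CD8 was -1.30 (adjusted p = 0.467, limma). GBP2, of the same family, gave 0.82 and -0.70. In DP against CD8 the genes with the smallest p were ISG15 and MX1, with 0.86 and 0.68; without CD8 array 2 they were 1.37 and 0.81.

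The genes whose values followed those of the members most closely were sought among 1143 named genes detected on all 9 arrays, by Pearson r over the 9 arrays and with no test. For SLA-3 they were GFPT1 (r = 0.94), MIF (0.94) and UBL5 (0.93), where the median gene had 0.26. For B2M they were PSMD4 (0.97), LAMTOR2 (0.96) and ITGB2 (0.95), where the median gene had 0.26. For TAP1 they were GP9 (0.95), STAT5A (0.89) and PRPF19 (0.86), where the median gene had -0.20. GP9, a platelet glycoprotein gene, read 0.81, 0.69 and 0.49 in DP cells, 1.24, 0.21 and 0.71 in CD4 cells and -0.05, -0.96 and 0.96 in CD8 cells. Of the 5 platelet markers listed 4 were on the array, and they summed to 10.28 to 11.60 in DP cells, 10.50 to 11.18 in CD4 cells and 10.82 to 11.48 in CD8 cells, nearly all of it from a probe of ITGB3. PPBP was well above background on 0 DP arrays, 1 CD4 array and 1 CD8 array, and the part of platelet RNA in the TAP1 values was not tested. CD8 array 2 was the lowest point for both TAP1 and GP9.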

How the data were processed

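Cy3-labelled, amplified RNA of 9 sorted fractions was measured on 9 arrays, per the labels. Per the file headers, the scanner files came from Agilent Feature Extraction 11.0.1.1; their processed signal is a deposited intensity, background-corrected by the authors' scanner software and not normalized between arrays. The deposited table of processed values is on a log2 scale, with a median of 2.60 in each column; the sources used here do not say how it was made, and its CD8 columns 1, 2 and 3 followed scanner files 3, 1 and 2. It was used as an alternative.

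Processed signals were scaled here to the 75th percentile of each array, taken over probes that are not controls, and put on a log2 scale, with 1 to 12 spots left out per array as outliers and 0 saturated. Tested were probes that, in 1 fraction or more, were well above background on every array, with at least 2 values per fraction: 16024 of 43603 probes. Probes were named by unversioned accession from an annotation of Sscrofa11.1 (6730 probes, 3052 genes). The files name no build, so no coordinates are given. The test was limma 3.58.1 in R 4.3.3 (lmFit, eBayes with trend, all 9 arrays, no block), two-sided, at a Benjamini-Hochberg adjusted p of 0.05 over the tested probes; it was tested on simulated data. Figures used Python 3.11.15, matplotlib 3.10.9 and numpy 2.4.6. The number of arrays limits the precision.

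The members and lists were chosen with earlier results of these data known. By rule every member was named, each gene by its probe of highest mean; from each list the called genes, at most 2, or the 2 of smallest p were named, and for likeness the 3 genes of highest r. Individual further probes were named after their values were seen. Alternatives changed the scaling, background correction, value source, filter, slide, replicate block, variance trend, arrays in the fit and probe of the gene. The scanner files held no mean signal, so normexp (offset 50) was run on the median signal.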

Additional observations from a re-analysis of the deposited data

How the results depend on the processing

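Under every alternative run, 0 of the member probes were called in any comparison. The lowest adjusted p of any member probe was 0.9055 in DP against CD4, 0.3207 in DP against CD8 and 0.3011 in CD4 against CD8 (limma, over all alternatives). By the gene's probe of highest mean, the differences of SLA-3, SLA-6, SLA-7 and SLA-8 in DP against CD4, and of SLA-3, SLA-6 and TAP1 in DP against CD8, kept their sign in the alternatives with a test, but not their size: SLA-3 in DP against CD4 was 0.0439 with the slide as a block, and TAP1 in DP against CD8 was 0.218 with normexp. Another probe of SLA-3 was at -0.13 in DP against CD8. Further probes of these genes did not all keep their sign. Without DP array 1, every SLA-8 probe but that of highest mean fell below 0 in DP against CD4, at -0.0701, -0.176 and -0.0309. Some SLA-3 probes did so too, at -0.1568 and -0.0374, and the rest stayed above 0. In DP against CD8 without that array, some SLA-3 probes were at -0.042, -0.3593 and -0.2764, the rest above 0. Differences close to 0 changed sign. SLA-7 in DP against CD8 was 0.0383 with a percentile over detected probes, 0.0434 with quantile normalization and 0.0520 in the authors' deposited table. In CD4 against CD8, SLA-3 and B2M turned positive with quantile normalization (0.0918 and 0.106), normexp (0.186 and 0.164), the authors' deposited table (0.0924 and 0.103) and the slide as a block (0.114 and 0.0777). With 1 array left out, the ranges that crossed 0 were -0.0307 to 0.425 for B2M and -0.297 to 0.0792 for TAP1 in DP against CD4; -0.57 to 0.30 for SLA-7, -0.20 to 0.34 for SLA-8, -0.20 to 0.31 for B2M and -0.0589 to 0.922 for SLA-DMA in DP against CD8; and -0.34 to 0.28 for SLA-3, -0.0211 to 0.849 for SLA-7 and -0.378 to 0.0748 for B2M in CD4 against CD8. The cause was not tested.

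The count of calls over all probes depended on the settings. It was 47 in DP against CD4, 50 in DP against CD8 and 70 in CD4 against CD8 as reported. In the same order it was 1, 7 and 6 with normexp, 12, 5 and 12 with probes detected on all arrays alone, and 2, 2 and 38 with the slide as a block. It was 109 and 87 in the comparisons with DP without a filter, and 29 and 22 with the arrays compared alone. In DP against CD8 it was 22 with a percentile over detected probes and 24 in the authors' deposited table. With 1 array left out it ran between 2 and 55, 1 and 51, and 31 and 81; the lowest counts came without DP array 1 in both comparisons with DP, and without CD8 array 2 in CD4 against CD8.

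The replicate number as a block gave 144, 83 and 110 calls, and 30 and 21 in the comparisons with DP when CD8 arrays were numbered as in the value table, with 0 member probes called in each. Same-numbered arrays deviated together with r of -0.07 to 0.65, 7 of 9 over 0.1, and 7 of 9 arrays correlated best with an array of their own number, a hint from the data. The deposited files of one number also share an identifier, whose meaning the labels do not give, and all arrays numbered 2, and all numbered 3, share a slide. Class II calls were less firm than their size. SLA-DRA had an adjusted p of up to 0.215 in DP against CD4 and 0.113 in CD4 against CD8 (limma, both with normexp). SLA-DQB1 lost its call in 14 of 20 alternatives in each comparison of the CD4 fraction. Among the members, low signal limits TAP1 and SLA-7, whose tested probes were well above background on 7 of 9 arrays.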
